A study of Nothobranchius furzeri with 19 samples.

Results

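Of 26740 annotated genes of the turquoise killifish *Nothobranchius furzeri*, the 200 whose expression peaked most sharply in embryos at 10 days post fertilization (dpf) were described. For each gene, the count was divided by the library total, scaled to CPM (the count that would be seen if the total were 1000000) and taken as log2(CPM + 1). The mean of the 6 embryo libraries was compared with 4 other values, namely the means of trunks at 0 and 3 days post hatching (dph) and the single values of adult ovary and testis. A gene qualified when its embryo mean exceeded the highest of the other values by at least 1, and the set was chosen by these measured values as the 200 largest differences. The minimum of 1 was passed by 3329 genes, or 12.4% of all genes.

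All fish were of the inbred strain GRZ, with XX females and XY males and no further allele or agent. Whole embryos at 10 dpf were measured in 3 female and 3 male libraries, trunk parts on the day of hatching in 2 female and 3 male libraries, and trunks at 3 dph in 3 libraries of each sex. Ovary and testis at 3 months were measured in 1 library each, and they are given without any test. The labels do not say whether replicates came from separate animals, so the p-values below measure the spread between these libraries, which may be technical. The embryos were whole and kept their heads, whereas the later samples were trunks or gonads, so stage and tissue cannot be told apart in the contrast that chose the genes. In bulk RNA, fewer cells of a type and less RNA per cell cannot be told apart either.

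At 10 dpf the embryo is at the pharyngula stage, when organs take shape. Lens fibre cells fill with crystallins, photoreceptors start to make the proteins of the visual cascade, and pigment cells lay down melanosomes. In the neural tube, transcription factors of the homeobox, SOX and zinc finger families are switched on in successive waves as progenitors leave the cell cycle and become neurons.

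Gene symbols came from a gene table of the study, held here only in part, in which symbols of zebrafish orthologs stand beside 2671 of the identifiers. Among the 200 members, 28 have such a symbol and the other 172 are named by identifier only. Of the 28, 7 stood only in a portion of that table ordered by the sex comparison at 10 dpf, so the annotated members are not a random sample of the set. Near-identical members of gene families such as the crystallins can share reads, and their counts are uncertain to that degree.

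The 6 embryo libraries held 15563687 to 19943569 counts, the trunk libraries of 0 dph 17324478 to 20218857 and those of 3 dph 25600939 to 31493908. For ovary the total was 25875516, and for testis 11717979. Depth in embryos was not limiting, as 196 of 200 members had at least 100 counts in each embryo library. Among the embryos, male replicate 1 stood apart in markers of other tissues. Its summed CPM was 343 over 11 liver genes, 536 over 11 striated and heart muscle genes and 2567 over 4 embryonic globin genes, against at most 128, 211 and 625 in the other 5 embryos. Male replicate 3 had the lowest summed level of 30 retina genes (194 CPM, against 283 to 854 in the others) and of 5 lens genes (153 CPM, against 231 to 500). Germ cell markers were low in all embryos (1.73 to 4.91 CPM summed over 6 genes). In trunks they were higher in females, at 41.2 to 77.8 CPM in females and 5.83 to 13.2 CPM in males of 0 dph, and at 89.2 to 105 CPM and 7.91 to 13.6 CPM at 3 dph.

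The differences that defined the set ranged from 8.65 down to 3.79 on the log2(CPM + 1) scale, with a median of 4.38. At the edge of the set, Nfu_g_1_022909, Nfu_g_1_015963 and Nfu_g_1_015304 were just inside with differences of 3.80, 3.79 and 3.79. The next genes, Nfu_g_1_017311, Nfu_g_1_020936 and Nfu_g_1_003252, stayed outside with 3.79, 3.78 and 3.78. The boundary at rank 200 therefore separates genes that hardly differ. For 112 members the highest other value was that of 0 dph, for 48 that of 3 dph, for 32 testis and for 8 ovary.

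In trunks, most members were at low levels. These low levels were already present at 0 dph, and no stage between 10 dpf and 0 dph was sampled. In the embryo libraries, 2.83% to 3.74% of all counts came from these 200 genes. The share was 0.0598% to 0.105% in trunks at 0 dph, 0.0444% to 0.103% at 3 dph, 0.0206% in ovary and 0.0247% in testis. The median of the members' mean levels was 87.0 CPM at 10 dpf (range 17.0 to 1195). It was 1.44 CPM at 0 dph (range 0.0103 to 65.4) and 0.964 CPM at 3 dph (range 0 to 77.3). A mean under 1 CPM was found for 83 members at 0 dph and 101 at 3 dph, while 25 and 18 members kept a mean of at least 10 CPM. CPM is a share of the library total. The 10 largest genes of a library took 10.9% to 13.1% of its counts at 0 dph and 20.4% to 29.5% at 3 dph. The part of this in the CPM values was not tested. The median ratio of the mean CPM at 10 dpf to that at 0 dph was 44.7 over the 196 members with more than 3 counts at 0 dph, and the median ratio to 3 dph was 49.7 over 190 members. These ratios describe the choice of the genes and carry no test.

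In 199 of 200 members the lowest embryo lay above each of the 13 other libraries, which was true of 17.7% of all expressed genes. The exception was *rho*, described below. Since the rule asked for a high embryo mean, this count adds nothing beyond saying that the 6 embryos shared the peak.

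**Figure D1:**
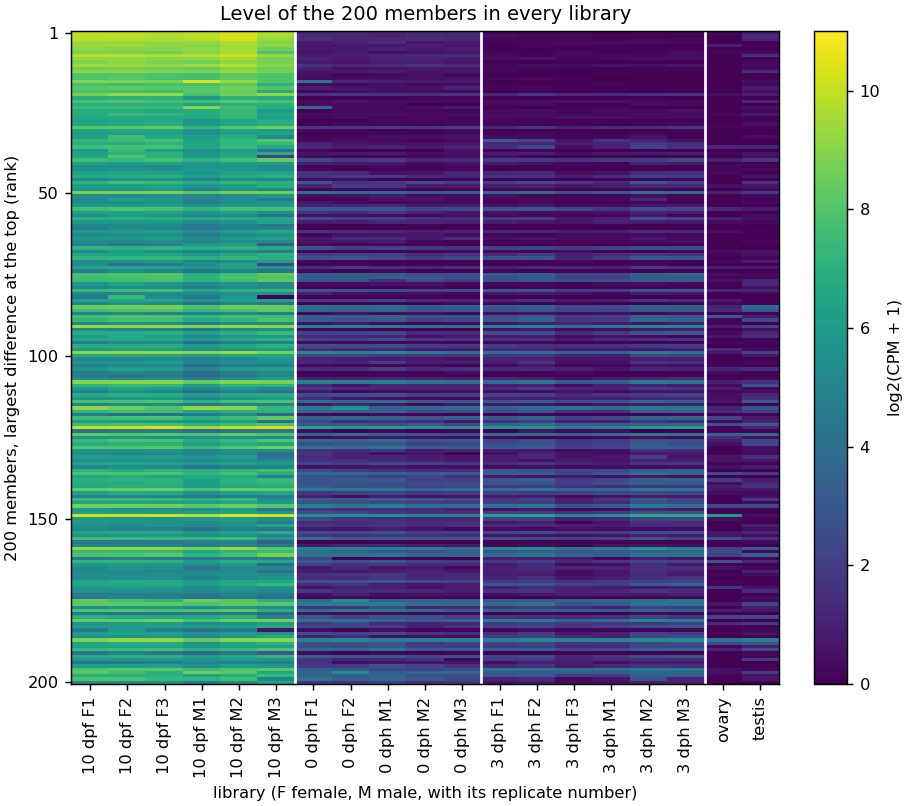
Heat map of log2(CPM + 1) of the 200 members (rows, ordered by their difference) in the 19 libraries (columns, grouped by stage). The 6 embryo columns are bright over nearly the whole height, trunks are dark at the top of the ranking and lighter towards the bottom, and the top 10 members lie between 248 and 1241 CPM in embryos and at or below 1.83 CPM in trunks.

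The 10 members with the largest differences form a uniform block, and none of them has a symbol. In embryos they ranged from 248 to 1241 CPM, corresponding to 3867 to 20166 counts. In trunks at 0 dph no value exceeded 1.83 CPM or 32 counts, although none of the 50 values was 0. At 3 dph their highest value was 0.446 CPM and 11 of 60 values were 0. All 10 were highest in the embryo male replicate 2, compared with 47 of all 200 members, and 8 of 10 were lowest in male replicate 3.

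Nfu_g_1_008082 led the ranking. Its embryo levels were 1008, 1033 and 869 CPM in females and 939, 1241 and 760 CPM in males. At 0 dph it was measured at 1.43 and 1.38 CPM in females and 1.18, 1.5 and 1.51 CPM in males, and at 3 dph between 0.0318 and 0.139 CPM (median 0.0687). The groups did not overlap, and the trunks at hatching were themselves separated from those at 3 dph. Nfu_g_1_014045, the last of the 10, showed the most complete loss among them. It had 6958 to 10603 counts in each embryo, 11 to 18 counts in each trunk library at 0 dph and a single count in all 6 libraries of 3 dph together. In the whole set, 2 members had no count in any library of 3 dph.

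Among the annotated members, 5 genes of the eye were nearly absent from trunks. The lens list contributed *crybb1l3* and *cryba1a*, which encode beta-crystallins, the structural proteins of the lens, and *mipb*, which encodes a water channel of lens fibre membranes. *crybb1l3* was at 216, 181 and 222 CPM in female embryos and at 214, 309 and 128 CPM in male embryos. In trunks it had 3 to 8 counts per library at 0 dph and 0 to 3 counts at 3 dph. *mipb* varied more, at 40.9, 15.7 and 22.1 CPM in female and 45.3, 84.8 and 4.50 CPM in male embryos, with 6 counts in all 0 dph libraries together and 3 in those of 3 dph. *cryba1a* lay between 10.9 and 27.7 CPM in embryos (median 19.1) and never exceeded 1 count in a trunk library. The 3 lens genes shared their extremes, being highest in male replicate 2 and lowest in male replicate 3.

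The retina list contributed *rho*, encoding rhodopsin, the visual pigment of rods, and *cdhr1a*, a cadherin-related protein of photoreceptor outer segments. The member entries are Nfu_g_1_001501 for *rho* and Nfu_g_1_023349 for *cdhr1a*. Other entries named *rho*, Nfu_g_1_001628 and Nfu_g_1_001634, had embryo means of 0.145 and 0.244 CPM and were not members. Another *cdhr1a* entry, Nfu_g_1_002793, had 10.6 CPM and was not a member either. Female embryos held 24.3, 168 and 39.0 CPM of *rho*, and male embryos held 20.4, 54.0 and 0.0643 CPM. The last value is 1 count, against 407 to 3136 counts in the other 5 embryos, so male replicate 3 had no more *rho* than trunks, where the highest count was 2. *cdhr1a* ranged from 19.8 to 83.3 CPM in embryos (median 38.9), and trunks held at most 9 counts except for 47 counts in male replicate 2 of 3 dph. Over the 5 lens and retina members and the 11 trunk libraries, 19 of 55 values were 0. No trunk mean of these members exceeded 0.371 CPM.

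*pmelb*, which encodes the fibril protein of melanosomes, was the only annotated member from a list of 2 pigment genes. It was at 112, 171 and 150 CPM in female and 111, 160 and 86.9 CPM in male embryos, but at 0.231 to 0.410 CPM at 0 dph and 0.206 to 0.349 CPM at 3 dph. Thus its 11 trunk libraries lay within a narrow low band at both ages.

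**Figure D2:**
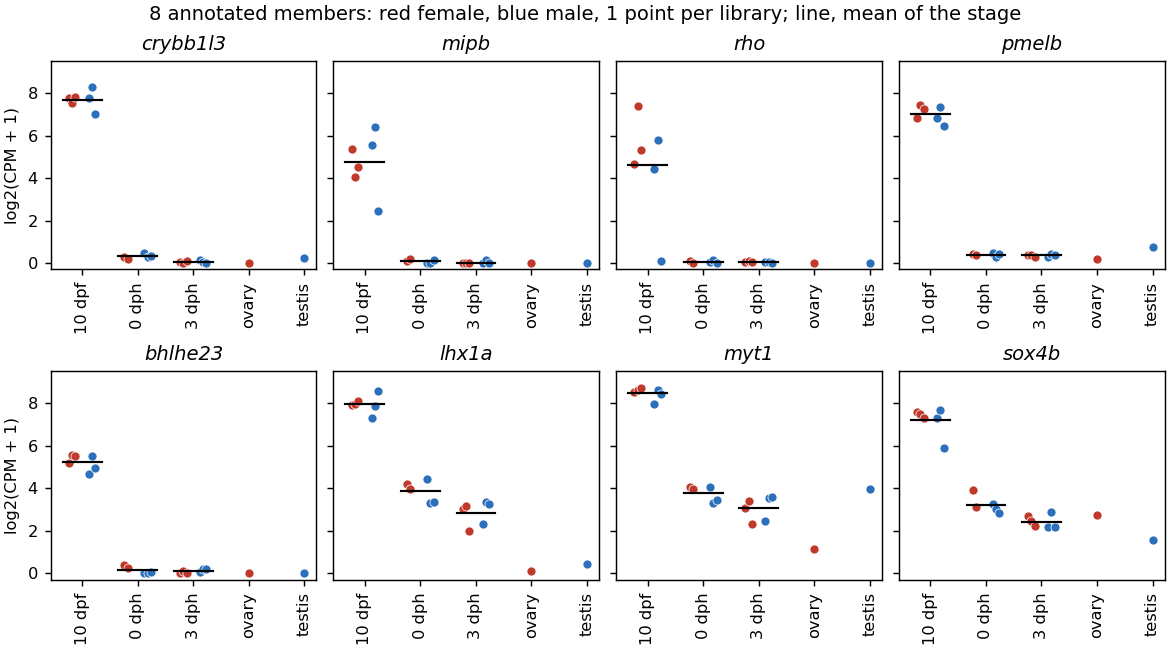
log2(CPM + 1) of 8 annotated members by stage, with 1 point per library (red, female; blue, male) and a line at the stage mean. The genes *crybb1l3*, *mipb*, *rho*, *pmelb* and *bhlhe23* are at or near 0 in all trunks, whereas *lhx1a*, *myt1* and *sox4b* kept between 2.98 and 20.5 CPM in each trunk library, and *rho* falls to 1 count in 1 male embryo.

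The largest annotated group comprised 10 members of a list of developmental transcription factors and related regulators. These were the homeobox genes *barhl2*, *irx6a* and *lhx1a*, the SOX genes *sox14* and *sox4b*, the basic helix-loop-helix gene *bhlhe23*, *mab21l1*, and the zinc finger genes *myt1*, *myt1la* and *scrt2*. Several of them act in the nervous system of vertebrates, such as *myt1* and *myt1la* in neuronal differentiation and *scrt2* in newly formed neurons. Their stage means ranged from 0.108 to 14.0 CPM at 0 dph and from 0.0697 to 8.32 CPM at 3 dph, so some were retained in trunks at a low level while others were nearly absent.

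At the retained end, *lhx1a* (LIM homeobox) had 257 ± 73.1 CPM (SD, n = 6) in embryos. In trunks at 0 dph it stood at 17.3 and 14.4 CPM in females and 20.5, 8.83 and 9.19 CPM in males, and at 3 dph between 2.98 and 9.08 CPM (median 7.60). *myt1* was similar, at 359 ± 61.9 CPM in embryos, 8.72 to 15.4 CPM at 0 dph and 4.02 to 10.8 CPM at 3 dph. Unlike most members, *myt1* reached its highest other value in testis, at 14.5 CPM. *sox4b*, an HMG-box gene of progenitors and young neurons, was at 158 ± 52.4 CPM in embryos and had 6.06 to 14.2 CPM at 0 dph.

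At the other end, *bhlhe23* had 35.8, 45.7 and 44.9 CPM in female and 24.2, 45.2 and 30.1 CPM in male embryos, and no trunk library held more than 5 counts. *sox14* was at 24.4 ± 5.99 CPM in embryos and 0.559 ± 0.237 CPM (SD, n = 5) at 0 dph. *scrt2* was at 43.6 ± 15.0 CPM and 1.62 ± 0.617 CPM, and *barhl2* at 61.5 ± 8.62 CPM and 1.09 ± 0.346 CPM. These genes lay below 3 CPM in each trunk library.

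Further annotated members encode proteins of neurons or signalling. *SV2B* (3 of 3), a synaptic vesicle protein, was at 20.5 to 68.7 CPM in embryos and at most 0.201 CPM in trunks. *calb2a* (calretinin, a calcium-binding protein of interneurons) was at 29.4 to 97.3 CPM and at 1.1 to 2.52 CPM at 0 dph, and *PLCH2* (2 of 2), a phospholipase C, at 15.4 to 51.2 CPM and 0.0989 to 0.572 CPM. *EPHB6*, an Eph receptor without kinase activity, was the only annotated member from the axon guidance list, with 29.8 to 65.8 CPM in embryos. *TKT*, encoding transketolase of the pentose phosphate pathway, was at 91.5 to 212 CPM in embryos and 0.335 to 4.05 CPM at 3 dph. The remaining symbols were *FAM161A*, *FAM171A2* (2 of 2), *march7*, *npas3b*, *TTYH1* and the unnamed loci *si:dkey-283b15.2* and *si:dkey-1d7.3*, with embryo means between 28.2 and 195 CPM.

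Whole gene lists, members included, are described by the same difference that chose the set, so they add no independent support. A difference of at least 1 was reached by 28 of 56 developmental transcription factors, 17 of 32 axon guidance genes, 17 of 22 neuron markers, 22 of 30 retina genes and all 5 lens genes, against 20.8% of all genes with a symbol. Their median differences were 1.02, 1.26, 2.36, 2.05 and 3.98, and the median of all genes was -0.43. In contrast, 1 of 25 DNA replication and mitosis genes, none of 11 liver and none of 11 muscle genes reached it. Embryonic globins also did not (0 of 4, median -2.82). Developmental signalling genes, with 5 of 23 (21.7%), were near the share of all genes with a symbol. The replication and mitosis genes summed to a median of 1863 CPM in embryos, 302 CPM at 0 dph and 770 CPM at 3 dph. They summed to 2069 CPM in ovary and 4500 CPM in testis, so they were above trunks but not above the gonads. Of 6 inner ear genes, another tissue of the head, 1 reached a difference of at least 1, and the median was -3.22. In this list *OTOA*, *USH1G* and *CDH23* were highest in testis and *stm* in ovary. Beside trunks alone, *USH1G*, *CDH23*, *OTOL1* and *pcdh15a* had their highest mean in embryos, and *OTOA* and *stm* did not. Among 18 chromatin genes, 8 reached a difference of at least 1 but none was a member. The neuron markers summed to 874 to 1854 CPM in embryos, 158 to 312 CPM at 0 dph and 60.3 to 234 CPM at 3 dph. The lens genes summed to at most 1.23 CPM in any trunk library, and the retina genes to at most 22.7 CPM. How much of the difference came from heads being present in the embryo samples was not tested.

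The next question was whether the residual expression changed in trunks from 0 to 3 dph. Both ages were sampled as trunks. The rule had used each age as a ceiling, not their difference. A ceiling keeps out genes that are high in trunks at either age, so the counts below are shaped by the choice of the genes. Tissue markers still differed between the ages. The median summed level from 0 to 3 dph went from 1716 to 4612 CPM for liver genes and from 153 to 2869 CPM for globins. For neuron markers it went from 231 to 146 CPM. The part of such shifts in the changes below was not tested. With DESeq2 over the 11 trunk libraries and sex as a covariate, 191 members had an adjusted p-value. Of these, 69 were called at an adjusted p-value under 0.05, with 50 lower and 19 higher at 3 dph. Over all genes 50.6% were called, 25.2% lower and 25.4% higher, beside 36.1% of the members. By direction, 26.2% of the members were called lower, near the share of all genes, and 9.95% were called higher. The difference between members and other genes was not tested. edgeR called 42 lower and 16 higher of 156 tested, where 27.4% and 25.8% of all genes were called (53.2% together). The median change of the 50 was -1.64 and that of the 19 was 1.08 (log2). All 10 of the highest-ranked members fell, by 1.55 to 6.23 on the log2 scale, although their ranking had used these same trunk levels. Each of these calls was also made by edgeR and by DESeq2 without any one of the 11 libraries.

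Among the annotated members, 8 of 24 tested fell and 2 rose, beside 25.2% of all genes called lower and 25.4% called higher. Of the transcription factor group, *scrt2* fell by 1.45 ± 0.44 (log2, SE; adjusted p = 0.00304, DESeq2), *irx6a* by 1.22 ± 0.39 (adjusted p = 0.0047) and *barhl2* by 1.09 ± 0.39 (adjusted p = 0.0117). Smaller falls were called for *lhx1a* (-0.95 ± 0.30, adjusted p = 0.00427), *sox4b* (-0.80 ± 0.22, adjusted p = 0.000901) and *myt1* (-0.59 ± 0.26, adjusted p = 0.0484). In this group, 6 of 10 transcription factor members were called lower and none higher. The difference from the shares of all genes was not tested. The call for *myt1* was lost with edgeR (adjusted p = 0.0576). The change was 0.31 ± 0.25 in *mab21l1* and -0.44 ± 0.27 in *myt1la*, neither past the threshold. In the full list of 56 transcription factors, 16 fell and 13 rose among 55 tested, while 9 of 22 neuron markers and 16 of 32 axon guidance genes fell and 1 and 3 rose.

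*crybb1l3* (-2.45 ± 0.81, adjusted p = 0.00636) and *FAM161A* (-1.22 ± 0.44, adjusted p = 0.0143), a gene of the photoreceptor cilium in human, also fell. The former rests on 24 counts at 0 dph and 7 at 3 dph, summed over libraries. The 2 risers were *TKT* (1.08 ± 0.48, adjusted p = 0.0478) and *EPHB6* (1.06 ± 0.43, adjusted p = 0.0304). Neither rise was called by edgeR, which gave adjusted p-values of 0.0852 and 0.0567.

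The largest fall of any member was that of Nfu_g_1_016586, in which 1 library stood far above the others. Female replicate 1 of 0 dph had 19.2 CPM, the other 4 libraries of that age 0.693 to 1.43 CPM, and those of 3 dph 0 to 0.0671 CPM. The change was -7.14 ± 0.85 (adjusted p = 1.56e-15, DESeq2) and lay between -7.77 and -5.51 when each library in turn was left out, called each time. Nfu_g_1_012387 had the same shape, with 12.2 CPM in that library, 0.205 to 0.865 CPM in the other 4 and at most 0.103 CPM at 3 dph (-5.14 ± 1.2, adjusted p = 7.33e-05; -6.02 to -3.16 without single libraries). By contrast, Nfu_g_1_014045 fell by 6.23 ± 0.92 (adjusted p = 1.73e-10) with all libraries of 0 dph between 0.594 and 0.924 CPM.

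The largest rise was that of Nfu_g_1_016656. It was at 0.115 to 0.396 CPM at 0 dph, and at 8.50, 3.98 and 0.570 CPM in females and 2.03, 0.984 and 0.508 CPM in males of 3 dph (3.27 ± 0.65, adjusted p = 2.42e-06, DESeq2). The ages did not overlap although the 3 dph values spread widely. Nfu_g_1_009045 rose by 2.76 ± 0.65 (adjusted p = 9.53e-05) and Nfu_g_1_021524 by 2.47 ± 0.37 (adjusted p = 3.11e-10), the latter from 0.577 to 2.13 CPM at 0 dph to 2.95 to 10.1 CPM at 3 dph. Even so, each remained far below its embryo levels, which began at 89.2, 20.2 and 69.5 CPM for these 3 genes. The rule had asked for such a gap between embryo and trunk means in every member.

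**Figure D3:**
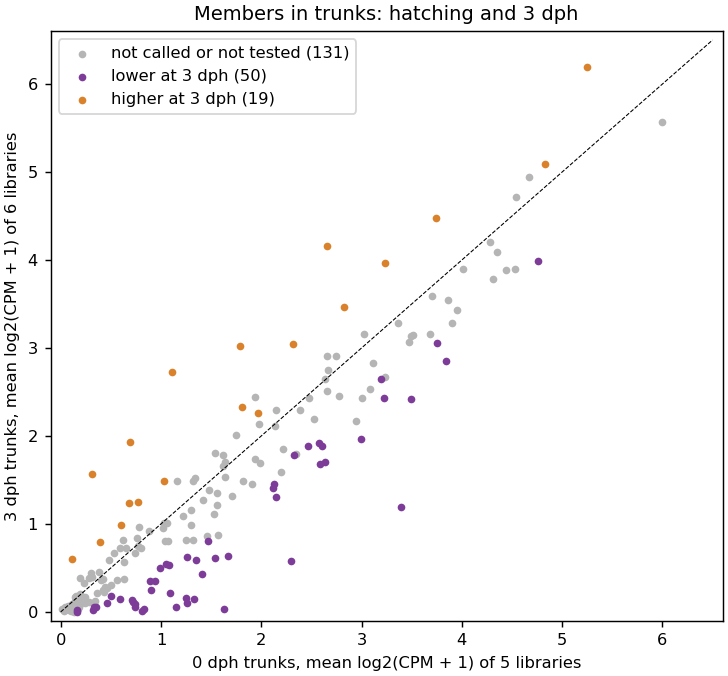
Mean log2(CPM + 1) of each member in the 5 trunk libraries of 0 dph (x axis) and the 6 of 3 dph (y axis). The dashed line marks equal levels. Purple points are the 50 members that DESeq2 called lower at 3 dph, orange points the 19 called higher.

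The levels of the members in single trunk libraries were set beside those of neuron markers. At 3 dph the median member ranged from 0.570 CPM in female replicate 3 to 1.43 CPM in male replicate 2. The 22 neuron markers summed to 60.3 CPM and 234 CPM in these libraries, again the lowest and the highest of the 6. All 6 libraries stood in the same order by both values. At 0 dph the orders differed only in the place of male replicate 1. It was highest in neuron markers (312 CPM, beside a median member of 1.44 CPM), whereas the median member was highest in female replicate 1 (1.77 CPM). The other libraries kept the same order by both values, with male replicate 3 lowest (1.08 CPM and 158 CPM). The part of neural tissue content in the trunk values was not tested.

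Over the 6 embryos, the median spread was somewhat larger for the members than for all genes of at least 1 CPM. The SD of log2(CPM + 1) over the embryos had a median of 0.36 for members and 0.29 for the 19078 genes with an embryo mean of at least 1 CPM, a difference that was not tested. Adding 1 CPM lowers the SD of genes at low levels, and the members were chosen for high embryo levels, so these medians are not like for like. In members the SD ranged from 0.11 to 2.45 and exceeded 1 in 7, beside 2.41% of those 19078 genes. For the median member, the highest embryo was 2.03 times the lowest, beside 1.87 times for the median of those genes. Only 2 libraries made up most of this spread: male replicate 1 was the lowest embryo for 124 members and male replicate 3 for 71, compared with 33.9% and 43.2% of all genes. Without both, a choice made after seeing the data, the median SD was 0.16 for members and 0.14 for all genes. Over the other 4 embryos, 187 members stayed within 2-fold, and the share of all genes that did so was not counted.

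These male embryos deviated in different ways. In male replicate 1, the members were shifted together, with a median deviation of -0.45 from their mean over the embryos (all genes, -0.08). Male replicate 3 had a median deviation of only -0.09 (all genes, -0.15) but a wide scatter, being the lowest embryo for 71 members and the highest for 56. Of all genes, 43.2% were lowest and 25.3% highest in this library, so the scatter was not particular to the members. Of the members lowest in male replicate 1, 53 were highest in male replicate 3. As given above, male replicate 1 also carried the highest liver, muscle and globin marker levels and male replicate 3 the lowest lens and retina marker levels. The neuron markers were lowest in the same libraries, at 874 and 930 CPM, against 1283 to 1854 CPM in the other 4. The part of these in the spread was not tested.

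All 5 lens and retina members were lowest in male replicate 3. These members are part of the lens and retina marker sums given above. The low sums in that library are therefore not an independent observation. Among the 10 transcription factor members, 7 were lowest in male replicate 1, and 3 (*irx6a*, *lhx1a* and *myt1la*) were highest in male replicate 3. For instance, *lhx1a* was at 241, 250 and 272 CPM in females and 158, 235 and 383 CPM in males, whereas *sox4b* was at 191, 178 and 158 CPM in females and 159, 206 and 58.2 CPM in males. The SD of the transcription factor members lay between 0.21 and 0.67 and that of the eye members between 0.41 and 2.45.

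The widest spread of any member was that of *rho*, followed by Nfu_g_1_005336 and Nfu_g_1_008844, which share its order at both extremes. Nfu_g_1_005336 had 89.6, 260 and 120 CPM in female and 67.2, 100 and 3.47 CPM in male embryos. Nfu_g_1_008844 had 21.7, 64.3 and 25.1 CPM in female and 16.6, 22.8 and 0.514 CPM in male embryos. All 3 were highest in female replicate 2 and lowest in male replicate 3, as were 20 members in all. At the other extreme, Nfu_g_1_020218 varied only from 37.6 to 47.2 CPM (SD 0.11), Nfu_g_1_012419 from 240 to 307 CPM (0.14) and Nfu_g_1_019893 from 44.8 to 59.6 CPM (0.15).

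**Figure D4:**
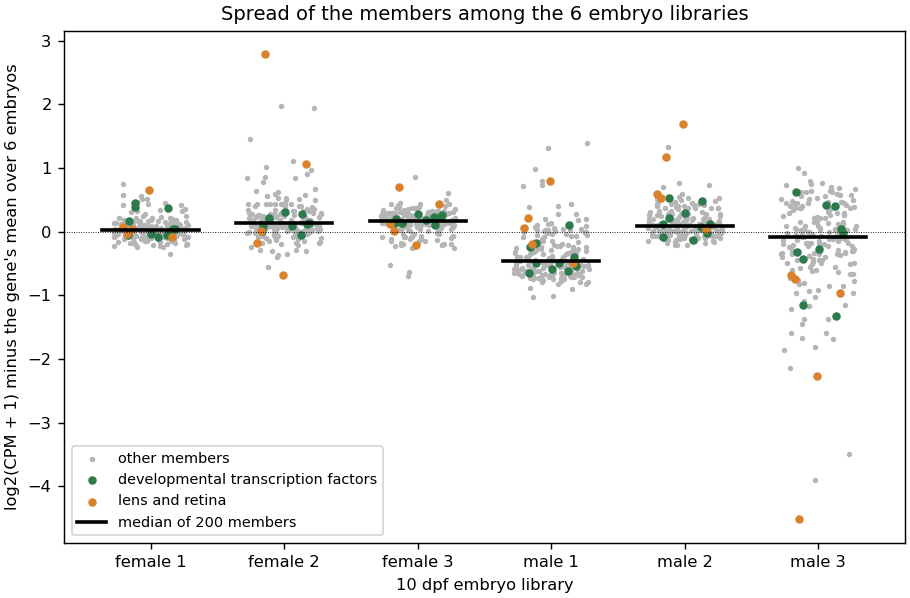
Deviation of each member from its own mean over the 6 embryos, in log2(CPM + 1), by library. Grey points are members outside both lists, green points the 10 developmental transcription factors, orange points the 5 lens and retina members and black bars the median of the 200 members, which is -0.45 in male replicate 1 and between -0.09 and 0.17 in the others. The orange points lie at or below -0.67 in male replicate 3.

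The sexes were compared within each stage, a contrast that the rule averaged out. In embryos, DESeq2 called 0 of 200 members, with 0.228% of all 20203 tested genes called. The smallest adjusted p-value of a member was 0.222, and 14 members had an unadjusted p-value under 0.05, beside 7.41% of all genes. edgeR also called 0, with 12 unadjusted, beside 6.65% of all genes. The median log2 fold change of females over males was 0.07 for the members and -0.08 for all genes. Females were all above males in 25 members and males all above females in none, against 12.2% and 3.83% of all genes (16.1% together).

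Libraries with equal replicate numbers deviated together in embryos, although the labels do not say what a replicate number marks. The names of same-numbered female and male samples carry different numbers, so the labels name no unit that they share. With that number as a block, a pairing that rests on these data alone, 2 members were called. Both were higher in females (background 0.522% for female-higher genes, 0.746% in both directions). *calb2a* was at 59.2, 97.3 and 71.0 CPM in females and 35.6, 51.5 and 29.4 CPM in males, with a blocked log2 fold change of 0.86 ± 0.22 (adjusted p = 0.0218, DESeq2). Each female was above each male, while the fit without the block gave 0.87 ± 0.28 and an adjusted p of 0.222. Nfu_g_1_019605, named for this call after its values were seen, was at 65.5, 166 and 76.1 CPM in females and 45.2, 74.4 and 15.7 CPM in males (1.2 ± 0.29, adjusted p = 0.0139). Here the sexes overlapped, and within each replicate number the female was higher. Without the block, leaving out a male library gave other calls, named here after their values were seen. Without male replicate 3, Nfu_g_1_015415 was called higher in females and Nfu_g_1_004493, Nfu_g_1_015979, Nfu_g_1_016586 and Nfu_g_1_022415 higher in males, 5 members in all (2.23% of all genes were called in this setting). Without male replicate 2, *calb2a* and *TKT* were called higher in females (1.23% of all genes called). These counts are near the shares of all genes.

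At 0 dph, 3 of 151 tested members were called, all higher in females, with a background of 3.31% in both directions and 2.11% for female-higher genes. Each rested on a single female library. Nfu_g_1_016586 was at 19.2 and 1.43 CPM in females and 0.923, 0.693 and 0.757 CPM in males (3.45 ± 0.80, adjusted p = 0.00131, DESeq2), but without female replicate 1 its log2 fold change was 0.72 ± 0.91. Nfu_g_1_017201 had 72 and 1 counts in females and 2, 1 and 0 counts in males (5.03 ± 1.53, adjusted p = 0.0346), and without the same library the estimate was -0.24 ± 3.68. Nfu_g_1_004891 was at 22.8 and 54.3 CPM in females and 9.90, 14.4 and 15.2 CPM in males (1.38 ± 0.43, adjusted p = 0.046), and at 0.53 ± 0.44 without female replicate 2. edgeR called 0 of 143 members at this stage (0.165% of all genes), and 15 had an unadjusted p-value under 0.05 (12.5% of all genes). It gave no result for Nfu_g_1_017201, whose counts did not pass its filter. DESeq2 with the replicate block called 0 of 136 (1.23% of all genes), with 5 unadjusted (4.20% of all genes). Females were all above males in 39 of 151 members and males above females in 5, against 25.8% and 6.78% of all genes (32.6% together). For male-higher genes the share called over all genes was 1.2%, and no member was among them. Without male replicate 1 or male replicate 2 the count was 0 (5.11% and 1.85% of all genes called), and without male replicate 3 it was 1 (2.15% of all genes).

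At 3 dph, 3 of 150 tested members were called, all higher in males, although 18.9% of all genes were called (13.7% female-higher, 5.19% male-higher). Nfu_g_1_023145 was at 27.7, 31.3 and 29.1 CPM in females and 36.7, 37.1 and 37.5 CPM in males (-0.38 ± 0.13, adjusted p = 0.0207, DESeq2; edgeR adjusted p = 0.0272). The sexes did not overlap and differed by less than a factor of 1.5. Nfu_g_1_014479 was at 6.93, 7.04 and 11.4 CPM in females and 12, 12.8 and 17.2 CPM in males (-0.74 ± 0.27, adjusted p = 0.0344), and Nfu_g_1_002515 at 3.13, 2.92 and 1.78 CPM in females and 2.57, 5.91 and 5.39 CPM in males (-0.86 ± 0.32, adjusted p = 0.0448). The sexes overlapped in the last gene but not in the others, and edgeR called neither of these 2 (1 member called, background 19%). Of the tested members, 128 had a fold change towards males and 22 towards females, and the median was -0.34. Over the 198 members with an estimate, tested or not, the median was -0.31 and 23.2% were towards females, beside -0.07 and 43.6% of all genes. The sexes did not overlap in 6 members, all with males above, against 33.9% of all genes (10.9% with males above, 23.0% with females above).

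This count at 3 dph depended on single libraries. It was 0 without female replicate 1, 0 without male replicate 3, 1 without female replicate 2, 5 without female replicate 3 and 9 of 136 tested without male replicate 1. Of all genes, 12.5% to 16.1% were called in these 5 settings in both directions together, a larger share than of the members each time. Most of those genes were female-higher, and the male-higher share was 2.18% to 3.58%. All 9 members called without male replicate 1 were male-higher, beside 3.34% of all genes. Without female replicate 3 it was 4 of 154 tested, beside 2.49%, and without female replicate 2 it was 1 of 146, beside 2.92%. These differences were not tested. With the replicate block 2 of 150 were called (background 11.9%), Nfu_g_1_014479 higher in males and Nfu_g_1_016656 higher in females (1.51 ± 0.42, adjusted p = 0.00512, DESeq2). Female replicate 3 and male replicate 1 were also the 3 dph libraries with the lowest neuron marker levels (60.3 and 86.2 CPM, against 126 to 234 CPM) and the lowest median member (0.570 and 0.687 CPM). Germ cell markers, given above, were higher in the female trunks at both ages. The part of either marker group in the sex differences was not tested.

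**Figure D5:**
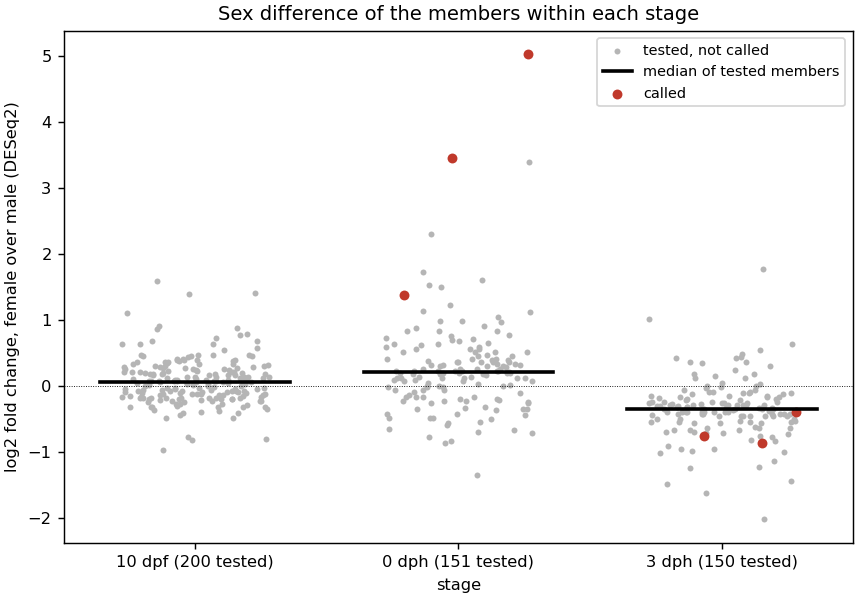
log2 fold change of females over males (DESeq2) for each tested member at 10 dpf, 0 dph and 3 dph. Black bars are the medians of the tested members (0.07, 0.21 and -0.34), and red points are the members called, with 0 in embryos, 3 with higher female levels in trunks at hatching and 3 with higher male levels 3 days later.

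Whether the sex difference itself changed from 0 to 3 dph was tested with an interaction term. Of 155 tested members, 6 were called, all with a lower ratio of female to male at 3 dph. Over all genes 8.73% were called, 2.48% in this direction and 6.25% in the other. edgeR called 2 (background 4.14%), of which Nfu_g_1_002515 was shared and Nfu_g_1_014008 went the other way with at most 9 counts in a trunk library. DESeq2 with the replicate block called 3 (background 4.3%), Nfu_g_1_004891, Nfu_g_1_011631 and Nfu_g_1_014479. Nfu_g_1_002515 was at 5.32 and 4.40 CPM in females and 2.41, 1.90 and 1.78 CPM in males of 0 dph, so females were above males at hatching and mostly below them at 3 dph (interaction -1.89 ± 0.47, adjusted p = 0.0021, DESeq2).

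In adult gonads most members were below 1 CPM. The rule had used ovary and testis as ceilings under the embryo mean, so low levels there are shaped by the choice of the genes. Ovary had 0 counts in 62 members and less than 1 CPM in 168, and testis had 0 counts in 38 and less than 1 CPM in 146. The medians were 0.0773 and 0.256 CPM. Above 10 CPM, testis held *myt1* (14.5), Nfu_g_1_012419 (12.6), Nfu_g_1_002270 (10.6) and Nfu_g_1_023145 (27.7), and ovary held Nfu_g_1_023145 (17.2) and Nfu_g_1_018689 (68.6), which was at 0.256 CPM in testis. Nfu_g_1_002270 and Nfu_g_1_018689 were named after their values were seen. With 1 library per gonad, these levels have no replicate check.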

How the data were processed

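RNA was isolated with QIAzol, prepared with the TruSeq RNA kit and sequenced on an Illumina HiSeq 2500 in rapid mode, per the labels. The authors used sga for read filtering, STAR for alignment against the species' reference genome and summarizeOverlaps for counts per gene. The submitters' processing notes also list bcl2fastq 1.8.4. The use of strand in counting is not given in the sources used here, so overlapping genes may share reads. The deposited values are raw counts, without normalisation. All 19 columns matched a sample label, and 0 were left unmapped. 0 rows lacked a gene name.

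CPM was computed over column totals, and levels are log2(CPM + 1). No gene identifier matched the RefSeq table of the assembly NfurGRZ-RIMD1 (0 of 26740), so coordinates and sequences are not reported here. Sexes (females over males) and ages were tested with DESeq2 1.42.0 in R 4.3.3, the authors' tool, on genes with at least 1 count. Stages were fitted separately with sex as the term, and trunks of both ages together with sex and age. p-values were adjusted after Benjamini-Hochberg over all genes, with calls under 0.05. Alternatives were edgeR 4.0.16 (quasi-likelihood, TMM, filterByExpr), other scaling, filters, pseudocounts, a replicate block and leaving out libraries. Scripts were tested on simulated data.

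Members, gene lists and tests were chosen with earlier results of these data known. Genes are named by rule: the 10 largest differences, members with a symbol, members called for sex (at most 6 per stage and direction), 3 with the largest and 3 with the smallest embryo SD, 3 on each side of rank 200, and 3 with the largest changes in each direction from 0 to 3 dph.

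Equal replicate numbers were checked by correlating deviations from the group means of the female and male library. At 10 dpf the correlations were 0.486, 0.213 and 0.635, all above 0.1, and the blocked result is given there. They were -0.127 and -0.239 at 0 dph and -0.208, 0.163 and 0.0226 at 3 dph. What a replicate number marks is not given in the labels.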

Additional observations from a re-analysis of the deposited data

Results flagged for a closer look

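Among the 59 named genes, 8 had an embryo library set apart from the other 5 by Dixon's criterion on log2(CPM + 1). Chance alone sets apart about 1 in 20 groups, but genes share the same 6 libraries, and the share was 19.5% over the 19078 genes with an embryo mean of at least 1 CPM and 19% over the 200 members. Of the named genes, 3 were chosen for their large embryo SD, among them Nfu_g_1_008844 and Nfu_g_1_005336. In 5 of the 8 the library was male replicate 3, at the low end. *sox4b* was at 58.2 CPM there, against 158 to 206 CPM in the others, and *TTYH1*, of the tweety family of membrane channels, at 13.4 against 43.7 to 64.9 CPM. The remaining 3 of these were Nfu_g_1_008844 (0.514 against 16.6 to 64.3 CPM), Nfu_g_1_005336 (3.47 against 67.2 to 260 CPM) and Nfu_g_1_015963 (32.1 against 150 to 244 CPM). Male replicate 1 was the low library for *myt1* (244 against 348 to 423 CPM) and *EPHB6* (29.8 against 49.2 to 65.8 CPM), and the high one for Nfu_g_1_012387 (516 against 114 to 194 CPM). Nfu_g_1_012387 was also high in a single trunk library, female replicate 1 of 0 dph, as was Nfu_g_1_016586, the member that was likewise highest in male embryo 1 (1315 against 258 to 635 CPM).

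The sex difference changed between 0 and 3 dph in 6 members by the interaction term of DESeq2, in each towards males. The log2 values were -2.23 for Nfu_g_1_014479, -1.89 for Nfu_g_1_002515, -1.75 for Nfu_g_1_004891, -1.24 for Nfu_g_1_012419, -1.13 for Nfu_g_1_011447 and -1.08 for Nfu_g_1_011631, with adjusted p-values of 0.00919, 0.0021, 0.0153, 0.00814, 0.0101 and 0.00871. Nfu_g_1_011447 and Nfu_g_1_011631 were named only for this call. Without female replicate 2 of 0 dph, which held 45.7 CPM of Nfu_g_1_014479 against 12.2 CPM in the other female, the values of Nfu_g_1_014479, Nfu_g_1_004891 and Nfu_g_1_012419 were -0.87, -0.89 and -0.87, and none was called (adjusted p = 0.338, 0.302 and 0.151). In the same setting Nfu_g_1_011447 was no longer called (-1.12, adjusted p = 0.0661). Nfu_g_1_011631 lost its call without female replicate 1 of 0 dph (-0.84, adjusted p = 0.0839) or of 3 dph (-1.02, adjusted p = 0.0561), and Nfu_g_1_004891 also without the latter (-1.56, adjusted p = 0.0646). Nfu_g_1_002515 kept its call without each of the 11 libraries in turn.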

How the results depend on the processing

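The counts of called members were small at each sex contrast and moved with the tool. With edgeR the count was 0 at 0 dph, 1 at 3 dph and 2 for the interaction, in place of 3, 3 and 6. With the replicate block it was 2 at 10 dpf, 0 at 0 dph and 3 for the interaction, and at 3 dph 2 in place of 3. Leaving out each library in turn gave 0 to 5 members at 10 dpf (0.016% to 2.23% of all genes) and 0 to 3 at 0 dph (1.48% to 5.11%). At 3 dph it gave 0 to 9 (12.5% to 19.8% in both directions), and for the interaction 4 to 13 (5.68% to 14.7%). Without male replicate 1 of 0 dph, the interaction called 13 of 108 tested members, all less female-biased at 3 dph. Of all genes, 4.24% were called in that direction. Without male replicate 1 of 3 dph it called 12 of 139, all in the same direction, beside 1.84% of all genes. For the change from 0 to 3 dph the count was 56 to 70 (45.7% to 49.9% of all genes). With all libraries that count was 69, with edgeR 58 and with the block 62. Of the 200 members, 117 were kept with a pseudocount of 10, 140 with 0.1, 159 without the gonads, 187 with median-of-ratios size factors, 185 with TMM, 186 to 199 without single libraries and 185 without male embryo replicates 1 and 3, the last chosen after seeing the data. Replicates are few, and trunk counts of many members are near 0, so small changes there were not detectable at this depth.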
